A study of Mus musculus with 6 samples.

Results

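The Nr4a and Egr families are immediate early transcription factors, whose genes are switched on within minutes of a signal and need no new protein for it. This account covers 6 of them, the orphan nuclear receptors Nr4a1, Nr4a2 and Nr4a3 and the zinc finger factors Egr1, Egr2 and Egr3, in mouse blood stem and progenitor cells. They were found as every probe set on the array whose annotated gene symbol is one of these names, which gave 15 probe sets of 34958 with a single gene symbol, and 6 genes of 18194. Each gene had 1 to 6 probe sets. The genes were chosen by measured values, namely that levels on the arrays numbered 1, 2 and 3 differed in the same way in both groups, so that pattern is described here and not tested.

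The study compared 3 arrays of GFP-positive cells with 3 arrays of GFP-negative cells. All 6 were made from bone marrow cells that lacked lineage markers and carried cKit and Sca1, which is where stem cells of the blood and multipotent progenitors are found. Every mouse, in both groups, was 6 weeks old and had the genotype Hes1 GFP/WT, so GFP came from 1 of the 2 alleles of Hes1, a repressor and Notch target, and the GFP-negative cells carried the same reporter. In each group the array numbered 1 came from a female and those numbered 2 and 3 from males, so sex and number 1 cannot be told apart. By sex, the number 1 array of each group came from other animals than those numbered 2 and 3. The labels do not say whether arrays 2 and 3 of a group came from separate animals or pools. The p-values therefore rest on a spread between samples that could be technical in part.

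NR4A receptors have no known natural ligand that is required for their activity, and are controlled mainly by how much of them is made. EGR proteins bind GC-rich promoters and are restrained by the corepressors Nab1 and Nab2. In mice, loss of Nr4a1 together with Nr4a3 leads to acute myeloid leukaemia, and loss of Egr1 makes blood stem cells divide more and leave the marrow. Upstream, the kinases that follow growth factor receptors act on these genes through serum response factor, which binds the CArG box, and through CREB, which binds the cyclic AMP response element (CRE).

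Upstream sequence from RefSeq (GRCm38.p6) was at hand for 4 of the 6 genes, Nr4a1, Nr4a2, Nr4a3 and Egr2, and the 250 bases before the annotated start are shown because all 4 carry the same CREB-type letters. Capitals mark the CRE core (TGACG on either strand) and the CArG box. For Egr2, which has 5 annotated start sites, the window of the one farthest downstream is printed. The starts used for Nr4a1, Nr4a3 and Egr2 lie inside the span of the RefSeq gene, which begins at base 101253902, 48045078 and 67534469 of the chromosome, so those windows lie wholly or mostly within the annotated gene.
Nr4a1, chr15:101266596-101266845, plus strand: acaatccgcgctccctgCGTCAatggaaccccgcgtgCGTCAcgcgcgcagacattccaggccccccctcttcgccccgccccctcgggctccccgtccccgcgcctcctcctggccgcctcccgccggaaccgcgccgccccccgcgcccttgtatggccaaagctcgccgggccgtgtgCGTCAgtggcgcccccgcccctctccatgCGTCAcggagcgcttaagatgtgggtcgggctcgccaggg
Nr4a2, chr2:57124004-57124253, minus strand: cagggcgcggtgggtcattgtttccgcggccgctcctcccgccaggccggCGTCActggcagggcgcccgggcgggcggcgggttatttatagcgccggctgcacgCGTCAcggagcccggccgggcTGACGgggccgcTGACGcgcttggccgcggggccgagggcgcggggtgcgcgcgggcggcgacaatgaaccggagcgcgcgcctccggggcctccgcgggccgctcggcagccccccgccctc
Nr4a3, chr4:48045055-48045304, plus strand: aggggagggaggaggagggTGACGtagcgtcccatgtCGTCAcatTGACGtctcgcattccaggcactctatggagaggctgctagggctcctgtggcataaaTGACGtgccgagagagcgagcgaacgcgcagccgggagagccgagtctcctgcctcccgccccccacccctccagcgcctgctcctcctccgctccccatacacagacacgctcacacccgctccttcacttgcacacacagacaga
Egr2, chr10:67537680-67537929, plus strand: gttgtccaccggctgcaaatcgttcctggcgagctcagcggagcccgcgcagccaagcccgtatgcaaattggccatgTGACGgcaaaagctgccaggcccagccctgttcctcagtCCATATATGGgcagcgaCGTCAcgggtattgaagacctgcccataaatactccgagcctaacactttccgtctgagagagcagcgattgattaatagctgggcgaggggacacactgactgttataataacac

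Each of the 3 Nr4a windows held 4 CRE cores. In Nr4a1 they began 233, 213, 69 and 40 bases before the start, in Nr4a2 at 200, 144, 123 and 111, and in Nr4a3 at 231, 213, 205 and 147. Of all 32851 windows of the same length, 17.8% held at least 1 CRE core and 0.137% held at least 4. The Egr2 window held 2 CRE cores, at 172 and 116 bases, on either side of a CArG box at 133 bases. The windows of its 5 starts overlap in part, and 4 of them held the CArG box and 3 held CRE cores. A CArG box was present in 1.47% of all windows, and a CArG box together with a CRE core in 0.17%. The full CRE (TGACGTCA), which contains the core on both strands, was not in any window of the 4 genes and was in 1.55% of all windows. The letters that EGR proteins favour (GCGNGGGCG, either strand) occurred once in Nr4a1, 60 bases before the start, and once in Nr4a2, at 74 bases. They were in 4.7% of all windows. The NR4A response element (AAAGGTCA, either strand) was in no window of the 4 genes and in 1.34% of all windows. These are matches of letters and say nothing about whether a factor was bound in these cells.

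**Figure D1:**
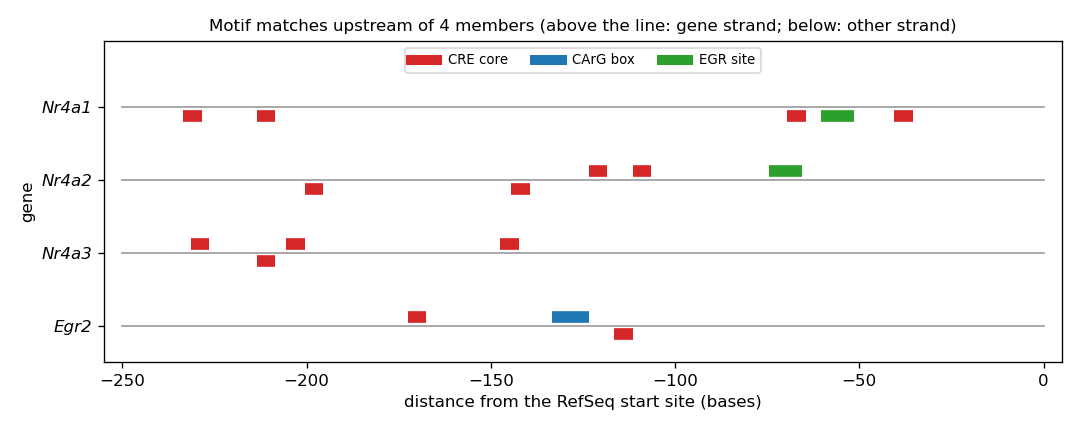
Motif matches in the 250 bases before the RefSeq start of Nr4a1, Nr4a2, Nr4a3 and Egr2, against distance from the start in bases. Bars above a line are on the gene's strand and bars below it on the other strand. Red marks the CRE core, blue the CArG box and green the EGR letters, and each Nr4a gene shows 4 red bars.

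The cells were checked against their labels before the factors were read. Kit was at 9.69 to 10.51 (log2 intensity) in GFP-positive arrays and at 10.47 to 10.72 in GFP-negative arrays. Cd34, Flt3, Ptprc and Cd48 lay between 10.51 and 12.43 on all 6 arrays. Each of them was lower on every GFP-positive array than on any GFP-negative array, as were 5.51% of all genes. Procr, a further marker checked, lay the other way, at 10.07 to 10.73 in GFP-positive and 9.44 to 10.03 in GFP-negative arrays, as did 5.89% of all genes. Slamf1, Meis1, Hlf and Mecom overlapped between the groups. By limma 0 of the 10 stem and progenitor genes measured passed in either direction. Sca1 itself (Ly6a) was not analysed here. Of the lineage markers measured, Cd3e lay between 5.38 and 5.98, Itgam between 5.21 and 7.65 and Cd8a between 6.44 and 6.93, while Cd4 reached 8.23 to 8.87 in GFP-positive and 8.67 to 9.92 in GFP-negative arrays. As guides to background, Y-linked genes reached 4.69 in the female arrays and Xist reached 5.59 in the male arrays. Hes1, whose reporter was sorted on, read 7.36, 7.09 and 7.84 in GFP-positive replicates 1, 2 and 3 and 6.78, 6.79 and 7.10 in GFP-negative replicates 1, 2 and 3. Its log2 fold change was 0.54 ± 0.24 (SE, adjusted p = 0.78 by limma). Pairwise correlations of the arrays lay between 0.925 and 0.951. Markers of other cells were present. Endothelial and stromal markers stood apart in GFP-positive replicate 1, where the summed intensity of 10 such genes was 14070, against 3438 and 1488 in GFP-positive replicates 2 and 3 and 1735 to 2846 in GFP-negative arrays. The largest part of that sum was Cxcl12, a chemokine of marrow stroma, which read 12.52, 9.27 and 8.33 in GFP-positive and 5.34, 5.52 and 5.38 in GFP-negative replicates 1, 2 and 3. By limma 0 markers of other cells passed, but many lay higher in GFP-positive cells at an unadjusted p under 0.05. These were 4 of 4 erythroid genes, 6 of 8 macrophage genes (with 1 lower) and 2 of 6 B and plasma cell genes. They also included 2 of 10 endothelial and stromal, 1 of 7 T and NK cell and 1 of 7 neutrophil genes. Vcam1 is in both the macrophage and the endothelial and stromal list and is counted in each. Adgre1, counted among the macrophage genes, lay between 3.65 and 5.09 on all arrays and so near or below background. Over all genes 6.71% fell under that p in either direction. These lists were drawn up with earlier results of these arrays known, so the counts are not independent evidence. The erythroid carbonic anhydrase Car1 lay between 10.83 and 11.80 in GFP-positive and between 7.86 and 8.77 in GFP-negative arrays, and the B cell factor Ebf1 between 6.96 and 7.86 in GFP-positive and between 4.94 and 5.34 in GFP-negative arrays.

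Across the contrast that the study set up, none of the 6 factors differed detectably between GFP-positive and GFP-negative cells. By limma over all 18194 genes, without the replicate number in the fit, 0 members passed an adjusted p of 0.05. Their adjusted p-values lay between 0.962 and 0.996, and in the same fit 0 of the 15 probe sets fell under 0.05 unadjusted. The background was the same: 0 genes passed in either direction (0% of genes, smallest adjusted p = 0.0956 by limma), while 1221 genes (6.71%) fell under 0.05 unadjusted. In no gene did the brightest probe set separate the groups, as it did, with all GFP-positive arrays above all GFP-negative ones, in 5.89% of all genes and, the other way round, in 5.51%, or 11.4% together. The spread among arrays within a group was large for Nr4a1 and Egr1, and in this fit their confidence intervals leave room for sizeable differences either way. That spread includes the swing between numbers that both groups share. With the replicate number as a block, Nr4a1 was at -0.88 ± 0.18 (log2 fold change ± SE, adjusted p = 0.493, unadjusted p = 0.00749 by limma) and Egr1 at -0.13 ± 0.28. In the block fit 7.64% of all genes fell under 0.05 unadjusted. The block takes out the swing by number that both groups share, and the genes were chosen for that swing. The smaller SE and p of Nr4a1 therefore follow in part from the choice and are not read as support for a difference. The labels do not say that same-numbered arrays belong together. The fold change was positive for 3 members and negative for 3, with a median of -0.034 (log2) beside 0.0077 over all genes.

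Nr4a1, also called Nur77, is induced by antigen receptor, cytokine and stress signals. It read 11.20, 7.48 and 5.60 (log2 intensity) in GFP-positive replicates 1, 2 and 3 and 12.09, 8.57 and 6.27 in GFP-negative replicates 1, 2 and 3. In both groups the array numbered 1 was highest and the array numbered 3 lowest, so the groups overlapped almost completely. The highest and the lowest array differed 89.8-fold as read, a range of 6.49 on the log2 scale that exceeded that of 99.9% of genes. The lowest, the number 3 array of GFP-positive cells, lay at the higher guide to background, so the measured fold may understate the difference. Within each number the GFP-positive array was the lower one, with differences of -0.89, -1.09 and -0.68 (log2, GFP-positive minus GFP-negative) for numbers 1, 2 and 3. These 3 differences are alike in sign and size, although 13.2% of all genes were also lower within all 3 numbers. The log2 fold change was -0.88 ± 1.93 (SE, adjusted p = 0.982 by limma), with a 95% confidence interval from -5.61 to 3.84. The fit leaves out the replicate number, so this interval includes the swing between numbers. With the number as a block the SE was 0.18, which follows in part from choosing genes whose swing both groups share. Leaving out single arrays from the fit without the block also moved the fold change. Without GFP-negative replicate 1 the fold change was 0.67 and without GFP-positive replicate 3 it was 0.36, since either omission leaves the numbers unbalanced between the groups.

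Nr4a2, or Nurr1, best known for its part in dopamine neurons and also an early response gene of immune cells, was read by 6 probe sets. The brightest read 10.04, 10.63 and 8.24 in GFP-positive replicates 1, 2 and 3 and 9.24, 9.98 and 8.42 in GFP-negative replicates 1, 2 and 3. Here the number 2 arrays were highest and the number 3 arrays lowest in both groups. The log2 fold change was 0.42 ± 0.71 (SE, adjusted p = 0.975 by limma).

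Other Nr4a2 probe sets gave other patterns. The fifth in brightness read 9.01, 6.12 and 4.61 in GFP-positive replicates 1, 2 and 3 and 9.43, 8.13 and 4.77 in GFP-negative replicates 1, 2 and 3, so it followed the order seen for Nr4a1 and ended near background. It was lower in GFP-positive cells within all 3 numbers, most so for number 2 at -2.01, and it is the single Nr4a2 probe set with a negative fold change. The second in brightness, at 9.57, 9.20 and 8.12 in GFP-positive and 9.30, 9.09 and 6.58 in GFP-negative replicates 1, 2 and 3, kept the same order of numbers with the opposite sign of the GFP difference. The third was highest in GFP-positive replicate 1, at 9.80, against 7.74 and 7.71 in GFP-positive replicates 2 and 3 and 8.41, 7.72 and 7.59 in GFP-negative replicates 1, 2 and 3, so both number 1 arrays lay above the other 4.

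The sixth and the fourth probe set in brightness hardly moved, with ranges of 0.74 and 0.53 over the 6 arrays. They were the 2 of 15 probe sets in which all GFP-positive arrays lay above all GFP-negative ones, which held in either direction for 11.5% of all probe sets. The sixth read 7.35, 7.04 and 6.97 in GFP-positive and 6.61, 6.70 and 6.96 in GFP-negative replicates 1, 2 and 3, so the nearest arrays of the groups differed by 0.014. Its log2 fold change was 0.36 ± 0.19 (SE, adjusted p = 0.854 by limma), and that of the fourth was 0.27 ± 0.17 (SE, adjusted p = 0.913 by limma).

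Nr4a3, or Nor1, acts redundantly with Nr4a1 in restraining myeloid progenitors in mice. Its brightest probe set read 7.76, 7.60 and 6.32 in GFP-positive replicates 1, 2 and 3 and 8.15, 7.66 and 7.31 in GFP-negative replicates 1, 2 and 3. The number 1 arrays were again highest and the GFP-positive array was lower within each number, with differences of -0.39, -0.057 and -0.98. The log2 fold change was -0.48 ± 0.44 (SE, adjusted p = 0.962 by limma).

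Both other Nr4a3 probe sets singled out GFP-negative replicate 1. The second in brightness read 5.61, 4.72 and 4.97 in GFP-positive replicates 1, 2 and 3 and 8.99, 5.29 and 4.67 in GFP-negative replicates 1, 2 and 3. The dimmest read 3.99, 3.46 and 3.16 in GFP-positive and 7.29, 3.28 and 3.54 in GFP-negative replicates 1, 2 and 3. On the other arrays they lay between 3.16 and 5.61, and so no higher than about the upper guide to background. Within number 1 the GFP-positive array was lower, with differences of -3.38 and -3.30. Their fold changes, -1.22 ± 1.14 and -1.16 ± 1.09 (log2, SE, adjusted p = 0.95 and 0.951 by limma), rest on GFP-negative replicate 1.

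Egr1, the most studied of its family and an activator of growth control genes, read 12.30, 10.64 and 9.27 in GFP-positive replicates 1, 2 and 3 and 12.59, 10.15 and 9.86 in GFP-negative replicates 1, 2 and 3. The number 1 arrays were again the highest of each group, with a range of 3.31 over the 6 arrays that exceeded that of 96.8% of genes. All 6 arrays stood far above both guides to background. The GFP-positive array was lower within numbers 1 and 3, with differences of -0.29 and -0.59, and higher within number 2, by 0.49. The log2 fold change was -0.13 ± 1.01 (SE, adjusted p = 0.996 by limma), with a 95% confidence interval from -2.61 to 2.35. Here too the interval includes the swing between numbers.

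Egr2, or Krox20, which controls myelination and the tolerance of T cells, was near background. Its brighter probe set read 6.11, 4.58 and 4.26 in GFP-positive replicates 1, 2 and 3 and 5.18, 4.17 and 4.15 in GFP-negative replicates 1, 2 and 3. GFP-positive replicate 1 was the single array above both guides, and the GFP-positive array was higher within each number, by 0.93, 0.41 and 0.11. Among all genes 13.8% were higher within all 3 numbers. The log2 fold change was 0.49 ± 0.56 (SE, adjusted p = 0.966 by limma). The dimmer probe set read 6.33, 4.28 and 3.42 in GFP-positive and 4.69, 4.62 and 3.61 in GFP-negative replicates 1, 2 and 3, so again GFP-positive replicate 1 alone lay above both guides.

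Egr3, which works with Egr2 in lymphocyte development, gave contradictory readings. The brighter probe set was flat, at 8.13, 7.47 and 7.88 in GFP-positive and 7.81, 7.69 and 7.81 in GFP-negative replicates 1, 2 and 3, with a log2 fold change of 0.058 ± 0.21 (SE, adjusted p = 0.992 by limma). The dimmer probe set read 7.02, 4.70 and 3.32 in GFP-positive replicates 1, 2 and 3 and 8.64, 3.08 and 3.19 in GFP-negative replicates 1, 2 and 3. Only its number 1 arrays were above both guides, and the range of 5.56 exceeded that of 99.8% of probe sets. The range of the flat probe set exceeded that of 34.0% of probe sets. The choice of probe set therefore decides whether Egr3 appears among the genes that were high in the number 1 arrays.

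**Figure D2:**
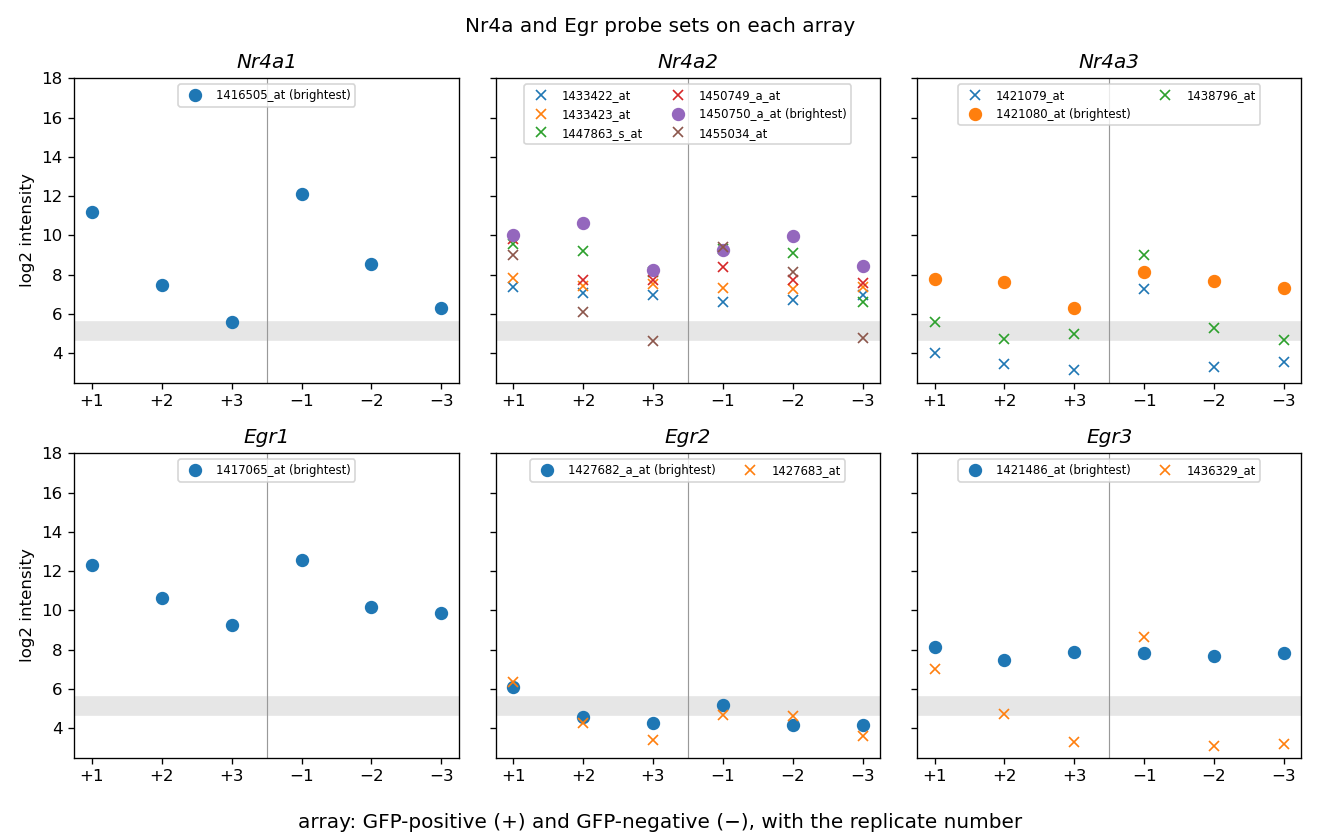
Log2 intensity of the 15 Nr4a and Egr probe sets on each array, GFP-positive arrays on the left and GFP-negative on the right of each panel, with the replicate number below. Filled circles are the brightest probe set of a gene, crosses the others, and the grey band spans the 2 guides to background, 4.69 and 5.59. Nr4a1 and Egr1 stand highest on the number 1 arrays of both groups, and the Egr3 probe sets disagree.

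Both number 1 arrays lay above the other 4 arrays for 4 of the 6 genes (Nr4a1, Nr4a3, Egr1 and Egr2) and for 11 of the 15 probe sets. The same held for 8.99% of all genes and 8.7% of all probe sets. The full order, number 1 above 2 above 3 in both groups, was seen for the same 4 genes and for 8 probe sets, against 3.23% of genes and 3.18% of probe sets. For Egr2 the number 2 and 3 arrays lay below both guides to background, so their order carries no information. These counts describe the pattern for which the genes were proposed, and nothing is read from their excess. The same goes for the ranges over the 6 arrays, which hold much of that pattern. By the brightest probe set the range exceeded that of 90.2% of genes for Nr4a2 and 81.2% for Nr4a3. For Egr2 it was 83.9% and for Egr3 38.5%. The mean of the number 1 arrays exceeded the mean of the others by 4.66 for Nr4a1, 2.46 for Egr1, 1.36 for Egr2, 0.73 for Nr4a3, 0.32 for Nr4a2 and 0.26 for Egr3 (log2).

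Within replicate numbers the direction of the GFP difference was mixed. Of the 15 probe sets 3 were lower in the GFP-positive array within all 3 numbers (1 each of Nr4a1, Nr4a2 and Nr4a3) and 5 were higher within all 3 (4 of Nr4a2 and 1 of Egr2). Over all probe sets 14% were lower and 13.4% higher within all 3 numbers. The GFP difference of the female arrays was compared with that of the male arrays by an interaction term in limma. Each group has 1 female array, so the female side is a single difference and the residual spread comes from the 4 male arrays. Adjusted p-values of the 6 genes lay between 0.814 and 0.999. No gene of the 18194 passed (0%, smallest adjusted p = 0.217, limma), and 1317 (7.24%) fell under 0.05 unadjusted. Of the 15 probe sets 0 passed and 3 fell under 0.05 unadjusted, beside 7.32% of all probe sets. These were both dimmer Nr4a3 probe sets, with adjusted p = 0.378 for the dimmest and 0.451 for the other by limma, and the third of Nr4a2, with adjusted p = 0.553 by limma. The Nr4a3 values rest on GFP-negative replicate 1 and the Nr4a2 value on GFP-positive replicate 1.

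**Figure D3:**
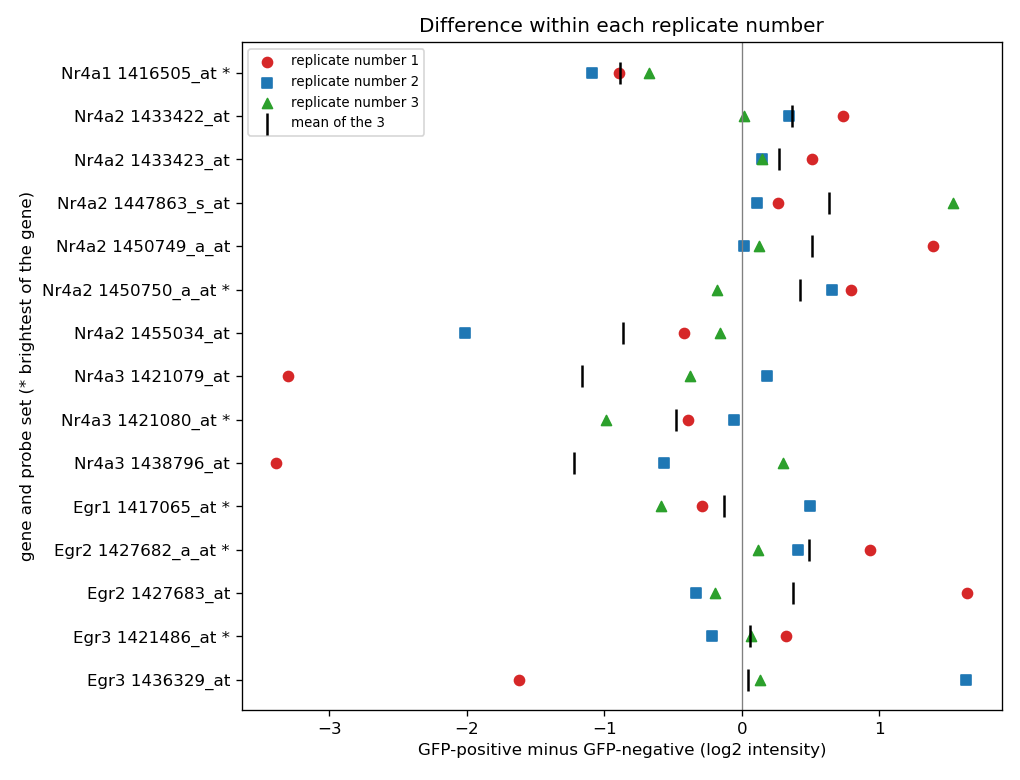
GFP-positive minus GFP-negative log2 intensity within each replicate number for the 15 probe sets, with circles for number 1, squares for number 2, triangles for number 3 and a bar for their mean. Nr4a1 shows 3 differences between -1.09 and -0.68, while the other genes scatter to both sides or change with the probe set.

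The profiles of the 6 genes over the arrays were compared with each other and with all other genes after subtracting each gene's mean, by the root mean square distance over the 6 arrays on the log2 scale. Egr1, Egr2 and Nr4a3 lay closest to the mean profile of the 6, at distances of 0.43, 0.45 and 0.48, while Nr4a1, which moved in the same order over a wider range, lay farthest at 1.57. Nr4a2 and Egr3 lay at 0.80 and 0.83. Among all 18194 genes, nearest first, Egr1, Egr2 and Nr4a3 ranked 81, 104 and 134. Nr4a2, Egr3 and Nr4a1 ranked 3558, 5035 and 17712, so the 6 genes did not share a single profile. The mean profile is made from the members themselves. The 10 other genes nearest to the mean profile were the Rab11 effector Rab11fip2 (0.19), the zinc finger factor Klf6 (0.20), the general transcription factor subunit Taf1 (0.21), the leucine zipper factor Cebpb (0.24), the dermatan sulfate epimerase Dse (0.24), Tmem184c (0.28), the immediate early gene Ier2 (0.29), the kinase adaptor Tab3 (0.29), the splicing factor Slu7 (0.29) and the keratin Krt10 (0.29). Klf6, for example, read 12.21, 11.19 and 10.29 in GFP-positive and 12.63, 11.40 and 10.84 in GFP-negative replicates 1, 2 and 3. Dse lay between 2.58 and 4.99 and so near or below background.

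The wide swing of Nr4a1 had its own nearest genes. These were Nfkbid, a nuclear regulator of NF-kappaB, at a distance of 0.76, the prostaglandin synthase Ptgs2 (0.84) and the kinase Sgk1 (0.87), with ranges over the 6 arrays of 5.27, 5.52 and 5.56. Ptgs2 read 8.35, 5.88 and 4.03 in GFP-positive and 9.55, 7.57 and 5.86 in GFP-negative replicates 1, 2 and 3. Nearest to Egr1 were Zfp979, a zinc finger protein (0.19), the surface protein Cd83 (0.34) and Krt10 (0.42). The distances rest on 6 arrays and describe these arrays only.

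**Figure D4:**
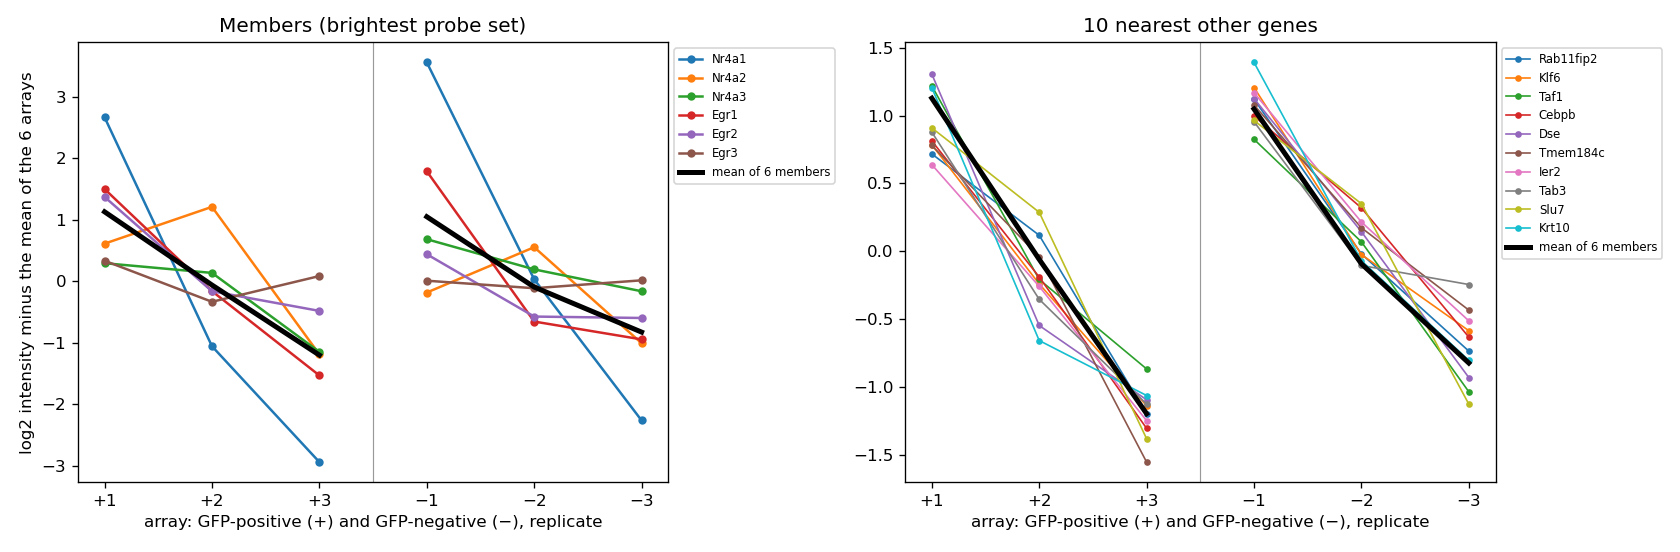
Log2 intensity minus the mean of the 6 arrays for the 6 Nr4a and Egr genes (left) and the 10 other genes nearest to their mean profile (right), by array. Thin lines join the values of a gene only to make it traceable, and the thick black line is the mean of the 6 genes, which is highest on the number 1 arrays at 1.13 and 1.05.

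Among the partners and upstream regulators of the families, 17 of 19 listed genes were measured, and 0 passed in either direction by limma. Their median fold change was -0.32 (log2), with a positive value for 5, and it was -0.16 without GFP-negative replicate 1 and -0.19 without GFP-positive replicate 1. Crebbp, the coactivator of CREB, had the smallest p of the list, at -0.58 ± 0.17 (log2 fold change ± SE, adjusted p = 0.545 by limma), followed by the serum response factor partner Elk4 at -0.38 ± 0.20 (adjusted p = 0.864 by limma). Both number 1 arrays lay above the other 4 for 2 of the 17 genes. The largest excess of the number 1 arrays, 1.12, belonged to Crem, a CREB relative with an inducible repressor form. It read 7.11, 6.80 and 5.50 in GFP-positive and 8.29, 7.45 and 6.57 in GFP-negative replicates 1, 2 and 3. The EGR corepressor Nab2, itself an EGR target, read 8.16, 8.40 and 8.67 in GFP-positive and 9.73, 8.02 and 8.44 in GFP-negative replicates 1, 2 and 3. Only GFP-negative replicate 1 was high for it.

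Of the 8 AP-1 genes, which form the partner class of immediate early factors, 7 lay higher on both number 1 arrays than on the other 4, and 0 passed in either direction by limma between the groups (median log2 fold change -0.20). The median was 0.41 without GFP-negative replicate 1, 0.19 without GFP-positive replicate 3, -0.0094 without GFP-positive replicate 2, -0.85 without GFP-positive replicate 1 and -1.01 without GFP-negative replicate 3. Fosb read 10.28, 8.01 and 6.67 in GFP-positive and 10.59, 8.92 and 5.47 in GFP-negative replicates 1, 2 and 3, and Fosl2 had the next largest excess of the number 1 arrays, 2.74.

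Of 35 other immediate early and feedback genes, 18 lay higher on both number 1 arrays than on the other 4. The stress phosphatase regulator Ppp1r15a read 10.38, 8.89 and 7.18 in GFP-positive and 10.65, 9.11 and 7.09 in GFP-negative replicates 1, 2 and 3. Tnfaip3, an inhibitor of NF-kappaB, had an excess of 2.46. In the GFP contrast 0 of the 35 passed in either direction by limma, the median was -0.40 (log2) beside 0.0077 over all genes, and 5 had a positive fold change. Within all 3 numbers 18 of the 35 were lower in the GFP-positive array, against 13.2% of all genes. This list was drawn up with earlier results of these arrays known, so its direction is not independent evidence. Markers of some other cells moved with the same contrast in the other direction. The median was 2.27 for erythroid, 1.94 for macrophage, 1.5 for B and plasma cell and 1.35 for endothelial and stromal genes (log2, GFP-positive minus GFP-negative). It was 0.16 for T and NK cell genes and 0.080 for neutrophil genes. Within the macrophage list Csf1r and Cd68 went the other way, at -2.20 and -0.37. The lists of other cells were also drawn up with earlier results known, and the part of such cells in the lower values was not tested. Of the 35 immediate early and feedback genes, Spry1 and Dusp6 had the smallest p-values. Spry1, a feedback inhibitor of receptor kinases, read 8.34, 7.16 and 7.56 in GFP-positive and 9.39, 9.14 and 8.47 in GFP-negative replicates 1, 2 and 3. Dusp6 is the phosphatase that switches off ERK. The log2 fold changes of Spry1 and Dusp6 were -1.31 ± 0.38 and -0.99 ± 0.33 (SE, adjusted p = 0.564 and 0.64 by limma). The list's median was -0.075 without GFP-negative replicate 1, -0.24 without GFP-positive replicate 3, -0.79 without GFP-negative replicate 3 and -0.89 without GFP-positive replicate 1.

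Genes known as EGR or NR4A targets in lymphocytes and other cells did not move as a block. By limma 0 of the 10 passed in either direction, the median was -0.15 (log2) and 5 had a positive fold change. Every omission of a single array moved that median. It turned positive, at 0.12, without GFP-positive replicate 2 and at 0.075 without GFP-negative replicate 1. It was -0.27 without GFP-positive replicate 3 and -0.31 without GFP-negative replicate 3. Without GFP-negative replicate 2 it was -0.41 and without GFP-positive replicate 1 it was -0.45. Both number 1 arrays lay above the other 4 for 2 of the 10 genes. Cd69, an early activation marker, read 9.44, 7.94 and 5.89 in GFP-positive and 11.28, 9.89 and 6.20 in GFP-negative replicates 1, 2 and 3, which repeats the order of Nr4a1, although GFP-positive replicate 1 lay below GFP-negative replicate 2. Id3, an inhibitor of E proteins, had an excess of the number 1 arrays of 2.19. The death gene Bcl2l11 (Bim) was at -1.36 ± 0.40 (log2 fold change ± SE, adjusted p = 0.564 by limma), and the surface protein Thy1 lay the other way at 1.24 ± 0.42 (adjusted p = 0.653 by limma).

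Heat shock genes, which encode chaperones induced by protein damage, were counted in the same way. Of 11 measured, 0 lay higher on both number 1 arrays than on the other 4. The share over all genes was 8.99%, so with 11 genes this count is not read as a difference. Between the groups 0 passed in either direction by limma, with a median of 0.062 (log2), which was -0.023 without GFP-positive replicate 2, 0.026 without GFP-negative replicate 3 and 0.11 without GFP-negative replicate 1. The inducible Hspa1b read 4.85, 5.50 and 4.13 in GFP-positive and 5.71, 4.51 and 3.88 in GFP-negative replicates 1, 2 and 3, around background. Hspb1 had the next largest excess of the number 1 arrays, 0.61, and Bag3 had the smallest p, with a log2 fold change of 0.57 ± 0.37 (SE, adjusted p = 0.918 by limma). Hspa1a, with the next smallest, lay below both guides to background on every array, at 3.03 to 3.47 in GFP-positive and 3.30 to 3.89 in GFP-negative arrays, so no fold change is given.

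**Figure D5:**
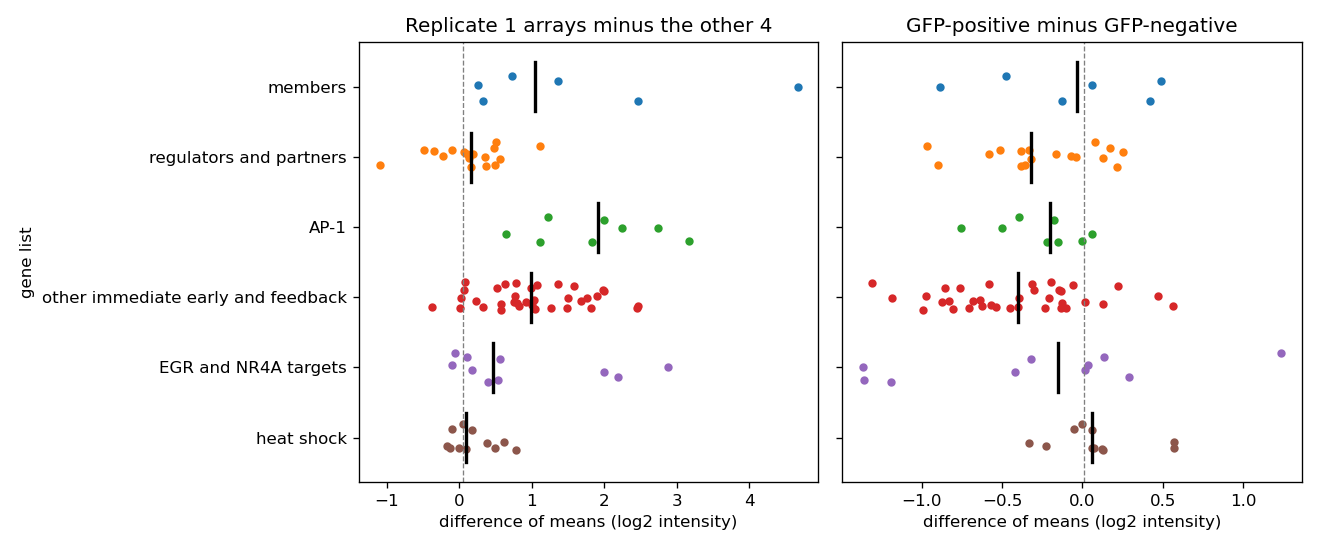
Each point is a gene, in rows for the 6 Nr4a and Egr genes and 5 related lists, and black bars are medians. The left panel gives the mean of the number 1 arrays minus the mean of the other 4, where AP-1 genes have a median of 1.91 and heat shock genes of 0.088. The right panel gives GFP-positive minus GFP-negative, and dashed lines mark the median of all genes.

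Other measures that moved with the number 1 arrays are given beside this pattern. Of 7 neutrophil genes 4 lay higher on both number 1 arrays than on the other 4. The summed intensity of the 7 was 22080, 9330 and 8283 in GFP-positive and 12440, 7903 and 8611 in GFP-negative replicates 1, 2 and 3. The largest part of that sum on every array was Mpo. It read 13.38, 12.74 and 12.65 in GFP-positive and 12.84, 12.83 and 12.85 in GFP-negative replicates 1, 2 and 3. The alarmin S100a8, abundant in neutrophils and monocytes, read 11.17, 8.13 and 7.83 in GFP-positive and 10.62, 7.73 and 8.38 in GFP-negative replicates 1, 2 and 3. Since Mpo is its largest part, the sum is not read as an amount of neutrophils. The part of cells with these transcripts in the levels of the Nr4a and Egr genes was not tested. In bulk RNA from sorted cells a larger number of cells with these transcripts and more RNA per cell cannot be told apart. Sex moved with number 1 as well. Of the 10 endothelial and stromal genes, 1 lay higher on both number 1 arrays than on the other 4. Cdh5, the endothelial cadherin, read 9.83, 4.91 and 4.65 in GFP-positive and 4.50, 5.01 and 4.29 in GFP-negative replicates 1, 2 and 3, and so was near background on all arrays but GFP-positive replicate 1. Among the control probe sets for transcript integrity, the 3′ minus 5′ difference lay between -0.41 and -0.33 for beta-actin and between 0.65 and 0.97 for Gapdh in GFP-positive arrays, and between -0.44 and -0.35 and between 0.71 and 0.86 in GFP-negative arrays (log2).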

How the data were processed

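The values the authors deposited are linear intensity values of 45101 probe sets on 6 arrays. The submitters' processing notes name RMA, whose version is not given in the sources used here. Per the labels' protocols, 5 ng of total RNA was amplified for each array. The arrays give no read depth, and their number limits the precision. Values were taken to log2 with no pseudocount.

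Probe sets were named from the platform annotation, and 34958 had a single symbol. The brightest probe set stood for each of 18194 genes, and every probe set was also fitted on its own. Groups were compared with limma 3.58.1 in R 4.3.3 (lmFit and eBayes, no covariates), with Benjamini-Hochberg adjustment over all genes or probe sets and a threshold of 0.05, and the fit was tested on simulated data. Alternatives covered probe set choice, a filter on dim genes, the variance prior, array weights, normalisation, a replicate block, sex and the omission of arrays. Genes were named by a rule: all members, in the 5 related lists the 2 of smallest p (not given for AP-1) and the 2 with the largest excess of the number 1 arrays, and the genes nearest in profile. Klf6, Ptgs2, S100a8, Cdh5, Cxcl12, Car1 and Ebf1 were picked for their values after these were seen. The members and lists were chosen with earlier results of these data known. Plots came from matplotlib 3.10.9 under Python 3.11.15. Where a gene has several probe sets, the text numbers them by mean level, brightest first.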

Additional observations from a re-analysis of the deposited data

How the results depend on the processing

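No member passed an adjusted p of 0.05 under any of the alternatives run. The number of genes past the threshold stayed at 0 in 17 of 19 alternatives. It was 1 (Ermap) when the dimmest 40 percent of genes were dropped, which also removed 1 member, Egr2. It ranged from 0 to 5 when arrays were left out in turn, with 5 (Jchain, Igk, Igkv8-30, Pou2af1 and Ermap, all higher) without GFP-positive replicate 3. The direction of small differences did change. Nr4a2 was at -0.86 (log2 fold change) by the fifth of its probe sets in brightness and at -0.0058 with array weights, Egr3 at -0.075 in the male arrays alone and Egr1 at 0.10 without both number 3 arrays. When single arrays were left out, fold changes ranged from -2.44 to 0.67 for Nr4a1, from -0.076 to 1.12 for Nr4a2, from -0.74 to -0.023 for Nr4a3, from -0.91 to 0.73 for Egr1, from -0.078 to 0.85 for Egr2 and from -0.095 to 0.24 for Egr3. Signs turned without GFP-positive replicate 3 or GFP-negative replicate 1 for Nr4a1 (0.36 and 0.67) and Egr1 (0.61 and 0.73), without GFP-positive replicate 1 for Egr2 (-0.078) and Egr3 (-0.095), and without GFP-positive replicate 2 for Nr4a2 (-0.076), and such an omission leaves a number in 1 group only. The median difference within numbers moved to 0.12 and -0.42 for Nr4a2 by the third and the fifth of its probe sets and to -0.20 for Egr2 by its dimmer one. Among the related lists, array weights moved the median fold change to -0.66 for AP-1, -0.74 for other immediate early genes and -0.022 for heat shock genes. Without both number 2 arrays it was -0.12 for AP-1, -0.30 for EGR and NR4A targets and -0.051 for heat shock genes, without both number 3 arrays -0.45 for AP-1 and -0.27 for targets, and in the male arrays alone -0.16 for regulators and 0.019 for heat shock genes. Dropping the dimmest genes gave -0.32 for targets, and median centring 0.033 for heat shock genes. The cause was not tested.

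With the replicate number as a block, Nr4a1 was at -0.88 ± 0.18 (log2 fold change ± SE, limma adjusted p = 0.493, unadjusted p = 0.00749 by limma) and 0 genes passed (smallest adjusted p = 0.352, limma), while 1390 genes (7.64%) had an unadjusted p under 0.05. The genes were chosen for a swing by number shared by both groups, so this SE and p of Nr4a1 follow in part from that choice. The labels do not say whether the numbers pair the samples. Deviations from the group means correlated weakly across all genes, at 0.124, 0.05 and 0.092 for numbers 1, 2 and 3. Between different numbers the correlations lay between -0.098 and 0.008. Each array did correlate best with its own number in the other group, which is a weak hint from the data and not from the design. Both number 1 arrays were female and the others male, so the match of number 1 cannot be told apart from sex. The correlations are also not independent, since deviations within a group cancel out.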
